A study of Homo sapiens with 8 samples.

Results

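The genes that encode p21 and the other inhibitors of cyclin-dependent kinases (CDKs) were followed in AGS, an established cell line from a human gastric adenocarcinoma. The list names 8 genes, CDKN1A, CDKN1B, CDKN1C, CDKN2A, CDKN2B, CDKN2C, CDKN2D and CDKN3, and every probe set that the platform annotation assigned to only 1 of them was taken. That gave 22 of the 44988 single-gene probe sets on the array, for 7 of the 8 genes. CDKN2C, which encodes p18, had no single-gene probe set and was not analysed here. The 4 podofilox arrays carried RNA of AGS cells kept for 72 hours with 3.4 nM podofilox (podophyllotoxin), a plant product that prevents tubulin from assembling into microtubules. The 4 control arrays carried RNA of AGS cells without podofilox, and all cells of both groups were grown in serum-supplemented medium. The labels do not say whether control cells received the solvent or whether the 4 samples of a group were separate cultures, so the spread behind each p-value may be technical only. All cells belong to 1 cell line. The comparison asks how the transcripts of these inhibitors differ in cells kept with the drug.

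CDKs drive the cell cycle when they are bound by a cyclin, and their inhibitors bind the kinase or the cyclin-kinase pair and stop it. The CIP/KIP inhibitors p21 (CDKN1A), p27 (CDKN1B) and p57 (CDKN1C) act on several cyclin-CDK pairs, whereas the INK4 inhibitors p16 (CDKN2A), p15 (CDKN2B), p18 (CDKN2C) and p19 (CDKN2D) bind CDK4 and CDK6. CDKN3 is no inhibitor of that kind but a phosphatase that removes the activating phosphate from CDK2, and it is itself expressed most in dividing cells. The CDKN1A gene is known to respond to many kinds of stress, and the level of p27 is set to a large degree by how fast the protein is broken down, which an mRNA array does not measure.

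The mRNAs for p19 and p21 were higher with podofilox, that for p57 was slightly higher, that for p27 was higher on 1 of its 2 probe sets, and those for p16, p15 and CDKN3 did not pass the test. By limma on all 44988 single-gene probe sets (two-sided, Benjamini-Hochberg adjusted p under 0.05), 6 of the 22 probe sets rose and 0 fell. Of all probe sets tested, 7.83% rose and 10.2% fell. At an unadjusted p under 0.05, also 0 of the 22 fell. In the fit with 1 value a gene, 3329 of the 18132 genes tested were lower at that threshold, and 0 of these 7 genes. Read as 1 value a gene, from the brightest probe set, CDKN2D, CDKN1A and CDKN1C rose and 0 of the 7 genes fell, where 8.55% of the 18132 genes tested rose and 12.5% fell. The 4 podofilox arrays lay all above the 4 control arrays in 6 of the 22 probe sets, against 10.5% of all probe sets, and all below in 1 of the 22, against 13.8%. The median difference over the 7 genes was 0.14, and over all genes it was 0.01. All values are log2 expression values of the deposited table, and every difference is podofilox minus control on that scale.

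The promoter letters of 3 genes are shown because they stand for the ends of the range: p21 and p19, whose transcripts rose, and CDKN3, whose transcripts did not pass the test on any of 8 probe sets. The sequences are RefSeq's, from assembly GRCh38.p14, and cover the 250 bases before the annotated start of the gene, read 5′ to 3′ on the gene's strand. The motifs searched on both strands were the GC box core GGGCGG, to which SP1 binds, TATAAA, the cell cycle homology element TTTGAA, the E2F site TTTCGCGC and the E-box CACGTG. Capitals mark each match.
CDKN1A, chr6:36678464-36678713, plus strand: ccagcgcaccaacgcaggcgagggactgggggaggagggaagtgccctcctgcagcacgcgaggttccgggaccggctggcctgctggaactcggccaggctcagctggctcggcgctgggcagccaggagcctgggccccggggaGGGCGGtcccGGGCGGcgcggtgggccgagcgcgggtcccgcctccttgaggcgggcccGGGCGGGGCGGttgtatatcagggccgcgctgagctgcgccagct
CDKN2D, chr19:10568980-10569229, minus strand: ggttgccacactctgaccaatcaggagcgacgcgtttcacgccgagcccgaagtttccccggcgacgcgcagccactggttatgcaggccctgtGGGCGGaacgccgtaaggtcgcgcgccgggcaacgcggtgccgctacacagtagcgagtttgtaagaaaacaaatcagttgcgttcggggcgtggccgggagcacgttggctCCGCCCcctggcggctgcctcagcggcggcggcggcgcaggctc
CDKN3, chr14:54396757-54397006, plus strand: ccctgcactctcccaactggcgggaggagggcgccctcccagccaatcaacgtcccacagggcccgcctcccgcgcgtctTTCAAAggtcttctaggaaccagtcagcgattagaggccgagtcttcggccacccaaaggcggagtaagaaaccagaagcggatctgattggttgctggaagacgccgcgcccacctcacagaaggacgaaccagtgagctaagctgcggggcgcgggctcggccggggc

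The CDKN1A window holds 4 matches of GGGCGG, of which the last pair overlaps, and the CDKN2D window holds 2. The CDKN3 window holds 0 of them and 1 match of TTTGAA, on the reverse strand. Among the measured genes, 6 had a window in the table, CDKN2A with 2 of them, and 5 of these 7 windows hold GGGCGG, a motif found in 42.6% of the 35116 promoter windows of the table. The CDKN1B window holds 1 match, the CDKN2B window 2, and the windows of CDKN2A 0 and 1. TTTGAA stood in 13.3% of all windows, and TATAAA, TTTCGCGC and CACGTG, with 0 matches in the 7 windows, in 10.7%, 0.4% and 6.3%. The 3 printed windows were 76.4%, 67.6% and 64.4% G and C, and the median of all windows was 58.0%. A match is a description of these letters and not a site of binding.

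The 8 arrays were alike in overall level, with medians of 6.39 to 6.44 on podofilox arrays and 6.41 to 6.45 on control arrays. Pairs of arrays within a group correlated across genes at 0.997 to 0.999, and pairs between groups at 0.995 to 0.997 (genes are not independent replicates). Control probe sets for 18S ribosomal RNA averaged 12.01, 12.06, 12.42 and 12.41 on podofilox arrays 1 to 4, against 12.86, 12.92, 12.59 and 12.59 on control arrays 1 to 4. In both groups arrays 1 and 2 were thus close to each other, and arrays 3 and 4 likewise. The labels name no batch, and each difference below was also taken separately on each of these pairs of arrays. The 3′ minus 5′ signal of GAPDH, a sign of RNA quality, ran from -0.16 to -0.11 on podofilox arrays and from -0.13 to -0.08 on control arrays.

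The epithelial label was checked against 6 markers. Given as the log2 of their summed linear signals, KRT18, KRT8 and the other markers came to 15.42 to 15.48 on podofilox arrays and to 15.30 to 15.36 on control arrays, and 1 of the 6, CLDN4, a tight junction protein, rose (0.50). The 8 fibroblast markers summed to 7.74 to 7.88 with podofilox and to 7.73 to 7.90 without, and 0 of them passed the test by limma (2 had an unadjusted p under 0.05, 1 in each direction). Of 7 measured immune markers 1 rose (CD68, 0.28), and their sum of 13.55 to 13.74 with podofilox and 13.55 to 13.69 without was carried by LYZ (13.62 with podofilox, 13.60 without), the lysozyme gene that gastric epithelium also expresses. PTPRC, the pan-leukocyte marker, was at 3.49 with podofilox and 3.62 without. Of 6 endothelial markers 1 fell on its brightest probe set (CDH5, -0.44, with 0.21 on its other probe set, which was not called), with sums of 8.55 to 8.78 with podofilox and 8.48 to 8.83 without. Among all genes tested, 8.55% rose and 12.5% fell. The part of these markers in the results below was not tested.

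**Figure D1:**
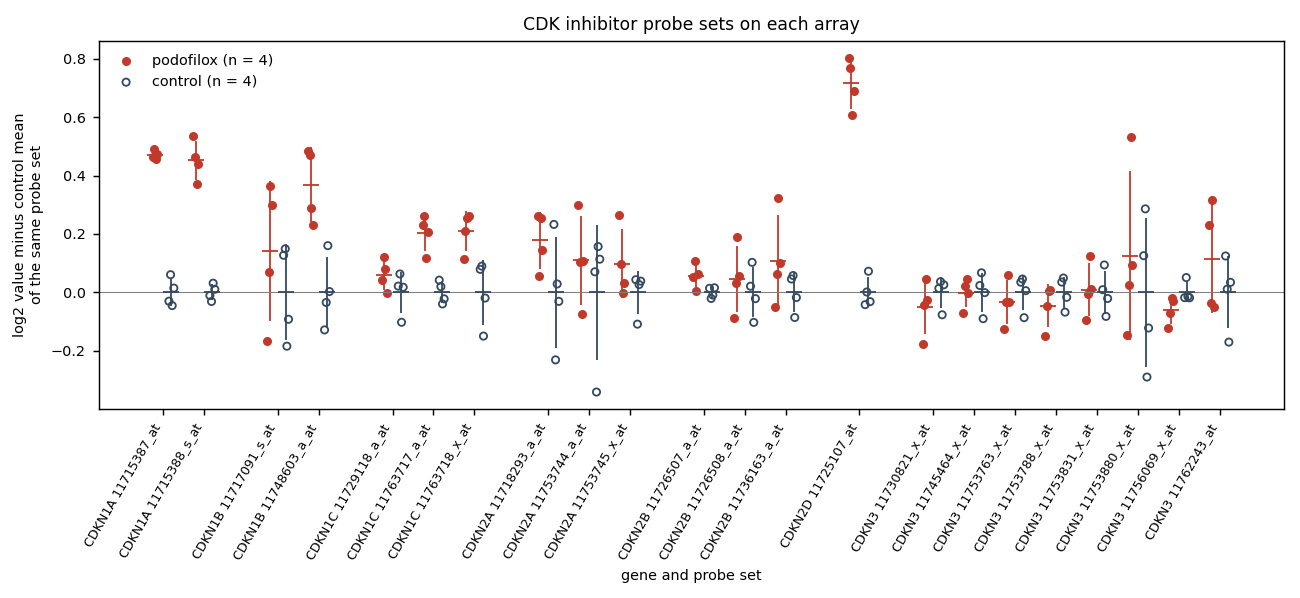
CDK inhibitor genes on every array, with podofilox on the left of control. The vertical axis gives the log2 value minus the control mean of the same probe set. Each array has a point, and each group mean has a mark with a bar for the SD. On the brightest probe set of each measured gene, podofilox and control points are apart for CDKN2D, CDKN1A and CDKN1C. On that probe set they overlap for CDKN1B, CDKN2A, CDKN2B and CDKN3.

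CDKN1A, on chromosome 6, encodes p21. Its probe set 11715388_s_at read 12.48, 12.41, 12.32 and 12.38 on podofilox arrays 1 to 4, against 11.93, 11.91, 11.98 and 11.96 on control arrays 1 to 4. The groups did not overlap, with the lowest podofilox array above the highest control array. The mean was 12.40 ± 0.07 in podofilox cells and 11.95 ± 0.03 in control cells (SD, n = 4 each), a difference of 0.45 (SE 0.05, 95% interval 0.35 to 0.56, limma adjusted p = 0.000216) or 1.37-fold. As each array measured a whole culture, a larger share of cells with much p21 mRNA and more p21 mRNA in every cell cannot be told apart.

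The other CDKN1A probe set, 11715387_at, gave nearly the same picture. It read 10.92, 10.95, 10.91 and 10.93 with podofilox, against 10.43, 10.52, 10.41 and 10.47 in control cells. The podofilox arrays were close together and all above the control arrays. Its means were 10.93 ± 0.01 in podofilox cells and 10.46 ± 0.05 in control cells (SD, n = 4 each), and its difference was 0.47 (SE 0.04, 95% interval 0.38 to 0.57, limma adjusted p = 0.000103), 1.39-fold. The changes of the 2 probe sets differed from each other by 0.02 (SE 0.05, exact two-sided permutation p = 0.686). Within arrays 1 and 2 the probe sets differed by 0.52 and 0.46 between podofilox and control, and within arrays 3 and 4 by 0.38 and 0.48. In the fit with 1 value a gene, CDKN1A held place 177 of 18132 when genes were ordered from the largest rise downward.

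CDKN1B, on chromosome 12, encodes p27, and its 2 probe sets gave different answers. The probe set 11748603_a_at read 8.78, 8.77, 8.59 and 8.53 with podofilox, against 8.17, 8.26, 8.46 and 8.30 in control cells. The groups did not overlap, but podofilox arrays 3 and 4 came close to control array 3. Its mean was 8.66 ± 0.13 in podofilox cells and 8.30 ± 0.12 in control cells (SD, n = 4 each), a difference of 0.37 (SE 0.08, 95% interval 0.20 to 0.54, limma adjusted p = 0.00871), 1.29-fold.

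The brighter CDKN1B probe set, 11717091_s_at, read 10.31, 10.54, 10.84 and 10.77 with podofilox, against 10.60, 10.62, 10.29 and 10.38 in control cells. The groups overlapped, with podofilox arrays 1 and 2 below control arrays 1 and 2 and podofilox arrays 3 and 4 above every control array. The mean was 10.61 ± 0.24 in podofilox cells and 10.47 ± 0.16 in control cells (SD, n = 4 each), a difference of 0.14 (SE 0.12, 95% interval -0.12 to 0.40, limma adjusted p = 0.46). The changes of the CDKN1B probe sets differed by 0.23 (SE 0.23, exact permutation p = 0.314, adjusted p = 0.377 over the 6 pairs of probe sets compared, which were picked after their values were seen), which is no larger than the spread between arrays. With the mean of both probe sets as its value, the CDKN1B gene difference was 0.26 (limma adjusted p = 0.0024).

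The pairs of arrays disagreed on both CDKN1B probe sets, in opposite directions. Arrays 1 and 2 gave a difference of -0.19 on CDKN1B 11717091_s_at, and arrays 3 and 4 gave 0.47, which passed the test on its own (adjusted p = 0.0112). On 11748603_a_at it was 0.56 on arrays 1 and 2 and 0.18 on arrays 3 and 4, where its call ended (adjusted p = 0.145). The difference on arrays 3 and 4 minus that on arrays 1 and 2 was 0.66 (SE 0.12, unadjusted p = 0.000561, limma adjusted p = 0.155) on 11717091_s_at and -0.38 (unadjusted p = 0.00573, limma adjusted p = 0.188) on 11748603_a_at. This test was added after the values were seen. In it 0 of the 22 probe sets passed by limma, 7 of 22 had an unadjusted p under 0.05, and of all probe sets 0.0311% passed and 15.8% had an unadjusted p under 0.05. The 18S values, which divide the arrays in the same way, are given above, and their part in these differences was not tested.

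CDKN1C, on chromosome 11, encodes p57, an inhibitor expressed from the maternal copy of the gene. Its brightest probe set, 11763717_a_at, read 8.28, 8.31, 8.16 and 8.25 with podofilox, against 8.09, 8.07, 8.01 and 8.02 in control cells. The groups did not overlap, and the gap between the nearest arrays was small. The means were 8.25 ± 0.06 in podofilox cells and 8.05 ± 0.04 in control cells (SD, n = 4 each), with a difference of 0.20 (SE 0.05, 95% interval 0.10 to 0.31, limma adjusted p = 0.0149), 1.15-fold. Without control array 4, CDKN1C 11763717_a_at no longer passed the test (adjusted p = 0.0511), nor did it on arrays 1 and 2 alone (0.22, adjusted p = 0.0543) or on arrays 3 and 4 alone (0.19, adjusted p = 0.0691).

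A further CDKN1C probe set, 11763718_x_at, read 8.13, 8.22, 8.27 and 8.28 with podofilox, against 8.09, 8.10, 7.86 and 8.00 in control cells. The groups did not overlap, and the lowest podofilox array lay just above the highest control array. Its difference was 0.21 (SE 0.06, 95% interval 0.07 to 0.35, limma adjusted p = 0.0446), with 0.08 on arrays 1 and 2 and 0.34 on arrays 3 and 4. The call of CDKN1C 11763718_x_at ended when podofilox array 2, 3 or 4 or control array 3 or 4 was left out, with adjusted p-values up to 0.109, and on arrays 1 and 2 alone (adjusted p = 0.492). The last CDKN1C probe set, 11729118_a_at, averaged 8.01 ± 0.05 in podofilox cells and 7.95 ± 0.07 in control cells (SD, n = 4 each), and its groups overlapped (difference 0.06, limma adjusted p = 0.476). The changes of 11763717_a_at and 11763718_x_at exceeded that of 11729118_a_at by 0.14 and 0.15 (SE 0.05 each), with exact permutation p-values of 0.0571 and 0.0286 and, adjusted over the 6 pairs, 0.0857 and 0.0571.

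**Figure D2:**
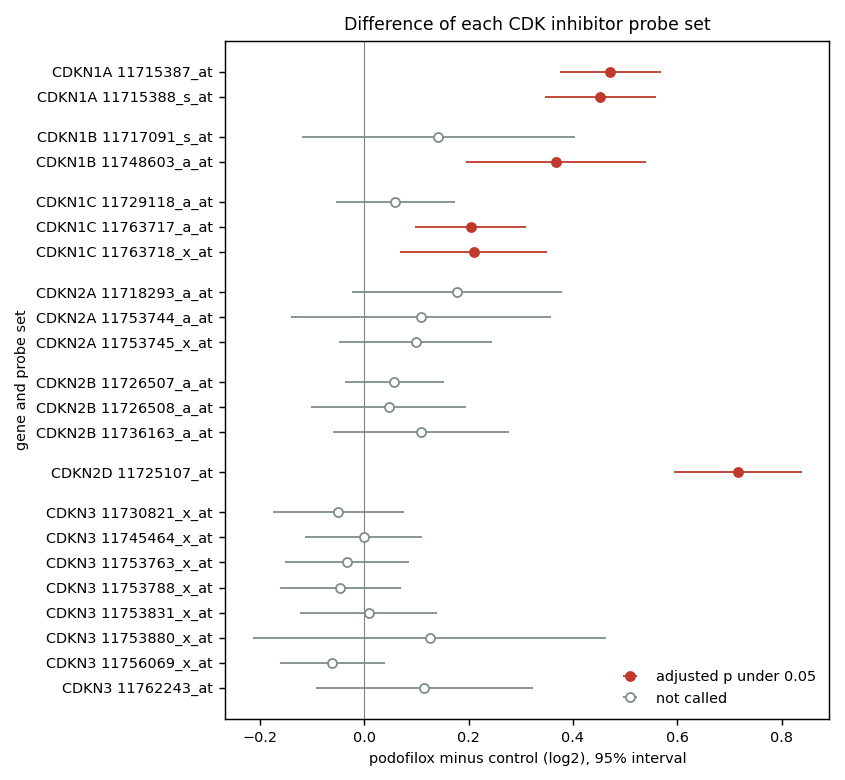
Difference between podofilox and control on the log2 scale (horizontal axis) for each of the 22 probe sets of CDK inhibitor genes, with bars for the 95% interval from limma and filled points for an adjusted p under 0.05. CDKN2D stands farthest from 0 at 0.72, followed by the CDKN1A probe sets at 0.47 and 0.45, and the intervals of all CDKN2A, CDKN2B and CDKN3 probe sets include 0.

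CDKN2D, on chromosome 19, encodes p19, the INK4 protein that is known to vary over the cell cycle. Its only probe set, 11725107_at, read 8.06, 8.02, 7.86 and 7.94 with podofilox, against 7.21, 7.26, 7.33 and 7.22 in control cells. The groups were far apart, and arrays 1 and 2 of podofilox were above arrays 3 and 4. The mean was 7.97 ± 0.09 in podofilox cells and 7.25 ± 0.05 in control cells (SD, n = 4 each), a difference of 0.72 (SE 0.06, 95% interval 0.59 to 0.84, limma adjusted p = 3.43e-05), 1.64-fold. This was the widest difference among the 22 probe sets and place 34 of 18132 genes from the largest rise downward. Arrays 1 and 2 alone gave a difference of 0.81, and arrays 3 and 4 alone gave 0.63. With 1 probe set, CDKN2D had no other reading of its own on the array.

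The rise of CDKN2D was 0.26 larger (SE 0.03) than that of CDKN1A on 11715388_s_at and 0.24 larger (SE 0.06) than on 11715387_at. Each of these gave an exact two-sided permutation p of 0.0286, the smallest that 70 arrangements of the arrays allow, and 0.0571 after adjustment over the 6 pairs. Neither difference passed the threshold after adjustment.

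CDKN2A and CDKN2B lie side by side on chromosome 9 and encode p16 and p15, the INK4 proteins best known from senescence and from losses in tumours. CDKN2A also encodes ARF in another reading frame, and which of these transcripts each probe set binds was not examined. The CDKN2A probe set 11753744_a_at read 5.44, 5.24, 5.06 and 5.24 with podofilox, against 5.21, 4.80, 5.29 and 5.25 in control cells. The groups overlapped, and control array 2 was the lowest of the 8. Its difference was 0.11 (SE 0.11, limma adjusted p = 0.56). The 11718293_a_at probe set read 4.51, 4.31, 4.51 and 4.40 with podofilox, against 4.49, 4.02, 4.28 and 4.22 in control cells (difference 0.18, limma adjusted p = 0.214), and 11753745_x_at differed by 0.10 (limma adjusted p = 0.349). All 3 CDKN2A probe sets were dim, brighter than only 20.6% to 33.0% of single-gene probe sets, and the table carries no detection calls, so expression of CDKN2A was not established.

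None of the 3 CDKN2B probe sets passed the test, also at an unadjusted p under 0.05. The brightest, 11726508_a_at, read 9.34, 9.46, 9.61 and 9.48 with podofilox, against 9.45, 9.53, 9.32 and 9.40 in control cells. The groups overlapped, and the difference of 0.05 (limma adjusted p = 0.683) was made of -0.09 on arrays 1 and 2 and 0.18 on arrays 3 and 4. The 11726507_a_at probe set averaged 7.45 ± 0.04 in podofilox cells and 7.39 ± 0.02 in control cells (SD, n = 4 each; difference 0.06, limma adjusted p = 0.405). The 11736163_a_at probe set differed by 0.11 (limma adjusted p = 0.37), with -0.05 and 0.26 within the pairs of arrays.

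Neighbours of CDKN2A and CDKN2B on chromosome 9 were read beside them. Of 4 such genes, 1 rose and 0 fell, with a median difference of 0.02, where 8.55% of all genes tested rose and 12.5% fell. MTAP, the methylthioadenosine phosphorylase that is often lost together with CDKN2A in tumours, averaged 8.87 ± 0.07 in podofilox cells and 8.69 ± 0.03 in control cells (SD, n = 4 each; difference 0.17, SE 0.05, limma adjusted p = 0.0274). MTAP passed on only 1 of its 6 probe sets, and the call of the MTAP gene ended without podofilox array 1 or 2 or control array 1, 3 or 4 (adjusted p up to 0.0778) and when its probe sets were averaged (0.07, adjusted p = 0.243). The antisense transcript CDKN2B-AS1 was dim at 3.64 with podofilox and 3.61 without, as was DMRTA1, a transcription factor gene, at 3.49 with podofilox and 3.47 without. KLHL9, a substrate adaptor of CUL3 ubiquitin ligases, differed by -0.05.

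CDKN3, on chromosome 14, had 8 probe sets, 7 of them of the _x_at kind, which can bind related transcripts. Their differences ran from -0.06 to 0.13, and limma adjusted p-values from 0.401 to 0.991. The brightest, 11753831_x_at, read 11.25, 11.34, 11.47 and 11.35 with podofilox, against 11.35, 11.44, 11.26 and 11.32 in control cells. The groups overlapped, and the difference was 0.01 (SE 0.06, 95% interval -0.12 to 0.14). The probe set 11753880_x_at spread most, with 8.67, 8.85, 9.35 and 8.91 with podofilox, against 8.95, 9.11, 8.53 and 8.70 in control cells. Its podofilox arrays 1 and 2 lay below control arrays 1 and 2, and its podofilox arrays 3 and 4 above control arrays 3 and 4, with differences of -0.27 and 0.52. The difference on arrays 3 and 4 exceeded that on arrays 1 and 2 by 0.78 (unadjusted p = 0.0041, limma adjusted p = 0.183).

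On 1 CDKN3 probe set, 11756069_x_at, the podofilox arrays (11.07, 11.12, 11.17 and 11.16) all lay below the control arrays (11.17, 11.24, 11.18 and 11.17). The nearest arrays of the groups are equal at the decimals shown. This was the only probe set of the 22 with that order, and its difference of -0.06 did not pass the test (limma adjusted p = 0.401). Over the 8 CDKN3 probe sets, differences on arrays 1 and 2 ran from -0.27 to 0.03, and those on arrays 3 and 4 from -0.01 to 0.52.

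**Figure D3:**
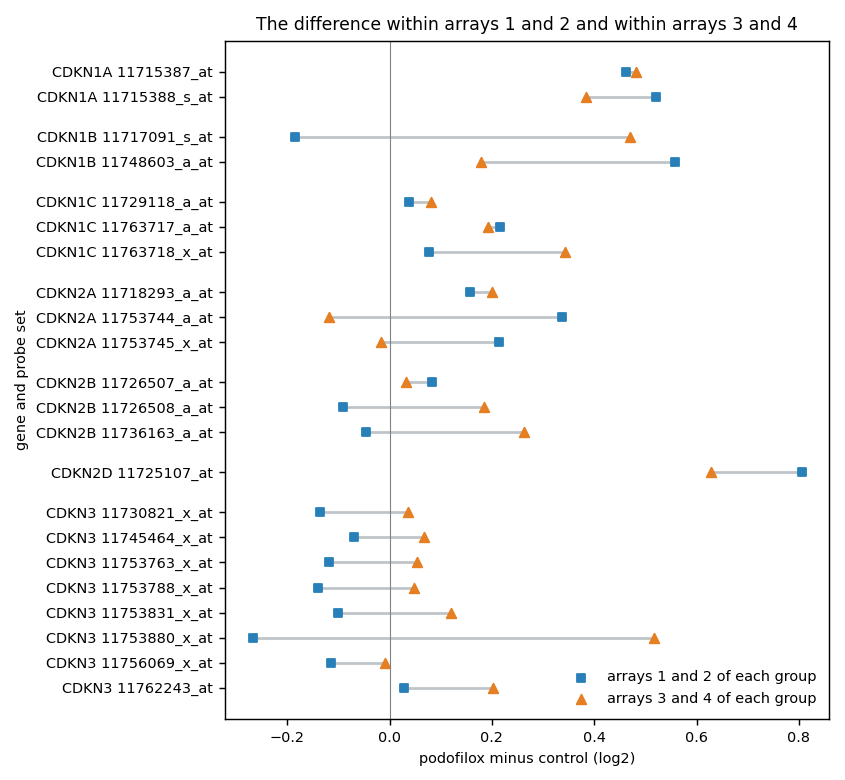
Difference between podofilox and control on the log2 scale, taken separately on arrays 1 and 2 and on arrays 3 and 4, for each of the 22 probe sets of CDK inhibitor genes. CDKN1A and CDKN2D lie above 0 in both pairs of arrays, while CDKN1B 11717091_s_at (-0.19 and 0.47) and CDKN3 11753880_x_at (-0.27 and 0.52) lie on opposite sides of 0.

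The kinases and cyclins on which these proteins act were read from a list of 12 genes, of which 5 fell and 1 rose (median difference -0.06). Of all genes tested, 12.5% fell and 8.55% rose. CCND1, the D-type cyclin that activates CDK4 and CDK6, averaged 11.65 ± 0.03 in podofilox cells and 12.07 ± 0.02 in control cells (SD, n = 4 each; difference -0.42, SE 0.04, limma adjusted p = 0.000119). CDK4, a target of INK4 proteins, averaged 10.72 ± 0.02 in podofilox cells and 11.08 ± 0.07 in control cells (difference -0.36, SE 0.05, limma adjusted p = 0.000506). CDK6, its close relative, averaged 11.11 in podofilox cells and 11.44 in control cells (difference -0.33, SE 0.04, limma adjusted p = 0.000554). CCND1 and CDK4 fell on each of their 4 probe sets and CDK6 on 3 of 4. The E-type cyclins, partners of CDK2, fell too on their brightest probe sets, CCNE2 on both of its probe sets and CCNE1 on 1 of 2 (-0.24 and -0.11). CCNE2 averaged 6.40 ± 0.12 in podofilox cells and 6.95 ± 0.09 in control cells (difference -0.54, SE 0.07, limma adjusted p = 0.000548), and CCNE1 differed by -0.24 (limma adjusted p = 0.00532). CDK2, which p21 and p27 inhibit, rose on all 3 of its probe sets and averaged 9.49 ± 0.06 in podofilox cells and 9.28 ± 0.04 in control cells (difference 0.22, SE 0.04, limma adjusted p = 0.00655). CDK1, the mitotic kinase, averaged 11.66 ± 0.13 in podofilox cells and 11.55 ± 0.07 in control cells and did not pass the test (difference 0.11, limma adjusted p = 0.292), although the CDK1 gene did so when its probe sets were averaged (0.19, adjusted p = 0.0414).

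Of 12 other brakes and activators of CDKs, 3 rose and 3 fell (median difference 0.03), against 8.55% and 12.5% of all genes tested. WEE1, which phosphorylates CDK1 to hold it inactive, averaged 10.82 ± 0.01 in podofilox cells and 10.44 ± 0.04 in control cells (SD, n = 4 each; difference 0.39, SE 0.04, limma adjusted p = 0.000155). CDK7, the kinase that activates other CDKs, rose by 0.28 (limma adjusted p = 0.00247), and CDK2AP2 rose by 0.21. CDC25A, the phosphatase that relieves the brake set by WEE1, fell by 0.35 (limma adjusted p = 0.00353). CABLES2 and CDK2AP1 fell by 0.23 each. The list thus moved in both directions, and its members act in both directions on CDKs.

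Breakdown of p21 and p27 was covered by 13 genes. On the brightest probe set of each, 5 fell and 1, SKP2, rose (median difference -0.05), where 12.5% of all genes tested fell and 8.55% rose. CUL1, the scaffold of the SCF ubiquitin ligases, averaged 10.15 ± 0.08 in podofilox cells and 10.69 ± 0.04 in control cells (SD, n = 4 each; difference -0.54, SE 0.05, limma adjusted p = 9.66e-05), and both of its probe sets fell. CUL4A and DDB1, parts of the ligase that marks p21 during DNA synthesis, fell by 0.32 and 0.24 (limma adjusted p = 0.000946 and 0.00213), and DTL, its substrate receptor, by 0.34. CUL4A fell on 2 of its 3 probe sets (differences -0.32 to -0.18) and DDB1 on 2 of 4 (-0.24 to -0.08). PSME3, a proteasome activator that promotes the breakdown of p21, fell by 0.38 (limma adjusted p = 0.000226). SKP2, the F-box protein that recognises p27, rose by 0.21 on its brightest probe set (SE 0.04, limma adjusted p = 0.00802), but its other probe set fell by 0.43. With the mean of these probe sets the SKP2 gene differed by -0.11 (adjusted p = 0.0518), so no direction is given for it.

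On the brightest probe set of each gene, 6 of 19 measured regulators of CDKN transcription rose and 4 fell, SMAD2 among the latter (median difference 0.01). Over all genes tested the shares were 8.55% and 12.5%. TP63 and BMI1 were not analysed here. FOXO3, a forkhead factor that activates CDKN1B, averaged 9.69 ± 0.05 in podofilox cells and 9.26 ± 0.01 in control cells (SD, n = 4 each; difference 0.44, SE 0.04, limma adjusted p = 0.000112). KLF6, a zinc finger factor that can activate CDKN1A, averaged 11.42 ± 0.04 in podofilox cells and 10.97 ± 0.05 in control cells (difference 0.44, limma adjusted p = 0.000157). KLF4, another activator of CDKN1A, rose by 0.48 and SMAD3, which carries TGF-beta signals to CDKN1A and CDKN2B, by 0.37 (limma adjusted p = 0.00437 and 0.00028). FOXO3 and KLF4 rose on each of their probe sets. KLF6 rose on only 3 of 5 (differences 0.14 to 0.51) and SMAD3 on only 2 of 5 (0.06 to 0.37). ID1, which opposes helix-loop-helix activators, fell by 0.41 (limma adjusted p = 0.000365). BRCA1 and E2F1 also fell, with differences of -0.39 and -0.14, and FOXO1 rose by 0.15. BRCA1 fell on 4 of its 5 probe sets, which ran from -0.58 to -0.0019, and FOXO1 rose on 2 of 4 (0.01 to 0.26). The BRCA1 difference was -0.61 on arrays 1 and 2 and -0.17 on arrays 3 and 4, and the KLF4 difference was 0.26 and 0.70. SMAD2 differed by -0.35 on its brightest probe set, but its 7 probe sets ran from -0.35 to 0.30, with 1 that fell and 1 that rose, so no direction is given for it. SP1 differed by 0.14 on its brightest probe set and passed on only that 1 of its 3 probe sets, which ran from -0.17 to 0.14. MYC, a repressor of CDKN1A and CDKN2B, had a difference of -0.10 and was not called (limma adjusted p = 0.246).

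A list of 14 genes covered the RB family and the DREAM complex, through which CDK inhibitors repress cell cycle genes, and also held FOXM1 and MYBL2. Of the 14 genes, 0 rose by limma, where 8.55% of all genes tested rose and 12.5% fell. At an unadjusted p under 0.05, 0 of the 14 were higher and 6 lower, against 2717 and 3329 of all 18132 genes. FOXM1 and MYBL2 were among the 4 that fell (median difference of the list -0.09). FOXM1, a factor that activates mitotic genes, averaged 7.71 ± 0.04 in podofilox cells and 8.14 ± 0.02 in control cells (SD, n = 4 each; difference -0.43, SE 0.04, limma adjusted p = 0.000119). MYBL2, which acts with the MuvB core on the same promoters, fell by 0.32 (limma adjusted p = 0.00308), and TFDP1, the partner of E2F factors, fell by 0.23 on its brightest probe set and passed on 4 of 5. E2F4, the repressor E2F of DREAM, differed by -0.17 (limma adjusted p = 0.0266), and the call of the E2F4 gene ended without podofilox array 1 or 3 or control array 1 or 4 (adjusted p up to 0.0744). RB1, RBL1 and RBL2, which encode the pocket proteins, were among the 10 that did not pass on the brightest probe set, although 1 of the 3 probe sets of RBL1 fell (-0.30).

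**Figure D4:**
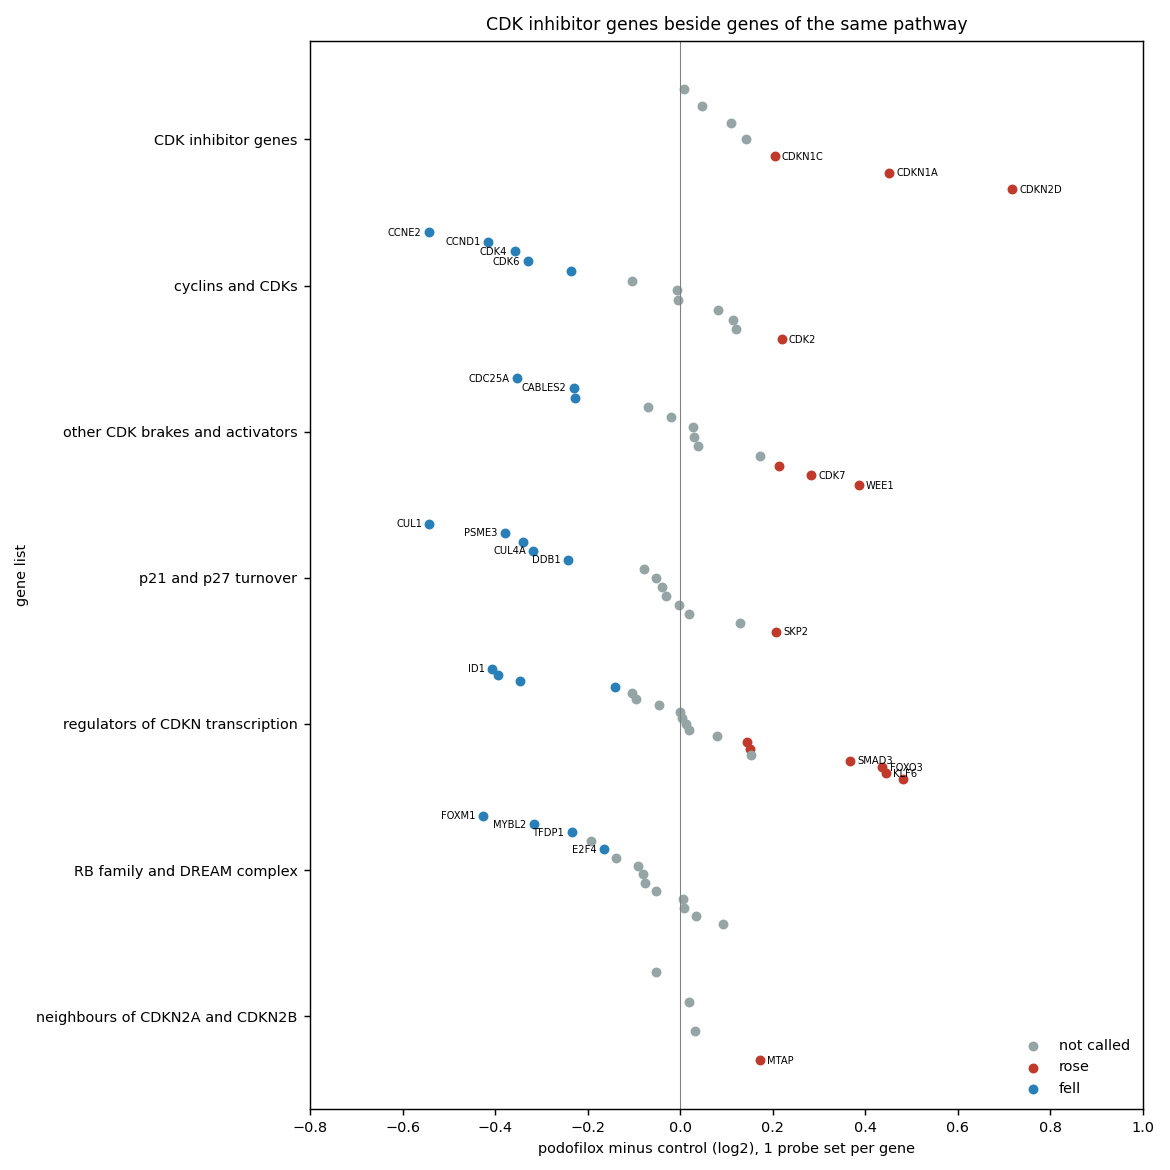
Difference between podofilox and control on the log2 scale (horizontal axis), 1 probe set a gene, for the CDK inhibitor genes and 6 lists of related genes, with red points for genes that rose, blue for those that fell and grey for those not called. CDKN2D (0.72) and CDKN1A (0.45) lie to the right of every cyclin and CDK of the list, of which CCNE2 (-0.54), CCND1 (-0.42), CDK4 (-0.36) and CDK6 (-0.33) lie farthest to the left.

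Other genes whose pattern over the 8 arrays was most like that of an inhibitor were found by the root mean square difference of log2 values, after each gene's own mean was subtracted. For CDKN1A, whose own values spread by 0.23 around their mean on this measure, the nearest ran from KDELR3 (0.03) over RRAS, HK1 and FZD5 to HK2 (0.04). KDELR3, a receptor that returns proteins to the endoplasmic reticulum, averaged 10.74 ± 0.05 in podofilox cells and 10.34 ± 0.04 in control cells, and the hexokinase HK2 averaged 9.42 ± 0.06 in podofilox cells and 8.99 ± 0.03 in control cells (SD, n = 4 each). For CDKN2D, with a spread of 0.36, they were the surface protein LYPD3 (0.04), the pseudokinase TRIB1 (0.05) and HERPUD1 (0.06), which takes part in protein degradation at the endoplasmic reticulum. LYPD3 averaged 8.87 ± 0.04 in podofilox cells and 8.18 ± 0.04 in control cells, TRIB1 averaged 11.25 ± 0.06 in podofilox cells and 10.60 ± 0.03 in control cells, and HERPUD1 averaged 9.69 ± 0.03 in podofilox cells and 9.04 ± 0.02 in control cells. For CDKN1C the nearest were ASMTL, TMEM61 and LMBR1L (0.02 each), with differences of 0.18, 0.18 and 0.23. In each of these 11 genes the podofilox arrays all lay above the control arrays, as the choice by likeness fixes.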

How the data were processed

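Per the labels, total RNA of AGS cells was isolated with TRIzol, converted to biotinylated cRNA and hybridised to 8 one-colour Affymetrix arrays. The authors deposited log2 expression values made with RMA, per the submitters' processing notes; the RMA software is not given in the sources used here, and the table holds no detection calls. Of 49395 probe sets, 102 manufacturer controls, 1832 with several genes and 2473 unnamed were left out. The Entrez identifiers of 44961 of the 44988 single-gene probe sets were in RefSeq's table (GRCh38.p14). All 8 arrays entered limma 3.58.1 in R 4.3.3 with group as the only term. SE is limma's moderated standard error, except where the changes of probe sets are compared with each other. There it comes from the variances of the groups, without moderation. Probe sets were compared with exact permutation tests, and the plots made in Python 3.11.15 with matplotlib 3.10.9. The number of arrays limits the precision.

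The members and the 6 lists of related genes used were chosen with earlier results of these data known. Named are all members, up to 4 genes of each list with the smallest p, CDK2, CDK4, CDK6, CDK1, CCND1, SKP2 and MYC, and the most alike genes, 5 for CDKN1A and 3 each for CDKN2D and CDKN1C. CDKN1B's brightest probe set was not called, so no alike genes were sought. Other genes called in a list were added after their values were seen. A further list and some genes of the rule are not reported here.

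Alternatives were renewed normalization, array weights, other probe set rules, array pair and replicate number as terms, each pair of arrays alone and each array left out. Replicate numbers did not pair the arrays.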

Additional observations from a re-analysis of the deposited data

Results flagged for a closer look

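In 5 of 132 groups of 4 arrays, drawn from the CDK inhibitors and the related and alike genes, 1 array stood away from the other 3, where chance alone does so in about 1 of 20 groups. CDKN2A 11753745_x_at read 4.51 on control replicate 2, against 4.65 to 4.66 on the other control arrays. CDKN3 11756069_x_at read 11.24 on control replicate 2, against 11.17 to 11.18, so this array lies on the side that widens the difference of the only probe set with all podofilox arrays below the control arrays. WEE1 read 10.84 on podofilox replicate 2, against 10.82 on the other podofilox arrays. CCND1 read 12.10 on control replicate 1, against 12.05 to 12.06. TRIB1 read 10.64 on control replicate 2, against 10.59. Each gap is small beside the differences of WEE1, CCND1 and TRIB1 between podofilox and control.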

How the results depend on the processing

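Over 21 alternatives 4 to 6 probe sets of CDK inhibitors rose, over 22 alternatives 2 to 4 genes rose, and 0 fell in any. The rises of CDKN1A and CDKN2D passed in each of these that tested them. The CDKN1B gene, read from 11717091_s_at, passed only within arrays 3 and 4, with the mean of its probe sets and where 11748603_a_at took its place. With the replicate block 5 probe sets and 3 genes rose, and CDKN1C 11763718_x_at did not pass (adjusted p = 0.107), nor did it with median centring (0.0523), with the pair of arrays as a term (0.0547) or within arrays 1 and 2 (0.492). Reversals concern differences that were small or depended on the arrays or probe set, and their cause was not tested. CDKN3 11745464_x_at was 0.0068 with median centring, 0.0085 with cyclic loess and 0.0091 with array weights. With the mean of probe sets, the SKP2 gene was at -0.1132 and the KLHL9 gene at 0.0261. Within arrays 1 and 2, CDKN1B 11717091_s_at was at -0.1857, CDKN2B 11726508_a_at at -0.0901, CDKN2B 11736163_a_at at -0.0458, CDKN3 11753831_x_at at -0.1012 and CDKN3 11753880_x_at at -0.2672, and the CDKN1B gene, CDKN2B gene and CDKN3 gene took the value of the probe set named. Within arrays 3 and 4, CDKN3 11745464_x_at was at 0.0676, CDKN3 11730821_x_at at 0.0353, CDKN3 11753763_x_at at 0.0534, CDKN3 11753788_x_at at 0.048, CDKN2A 11753744_a_at and the CDKN2A gene at -0.1179 and CDKN2A 11753745_x_at at -0.0173. With each array left out, differences ran from -0.0312 to 0.0217 for CDKN3 11745464_x_at, from -0.0299 to 0.0434 for CDKN3 11753831_x_at, from -0.0102 to 0.2205 for CDKN3 11753880_x_at, from -0.0043 to 0.17 for CDKN2A 11753744_a_at, from -0.0299 to 0.0866 for the CDKN2B-AS1 gene and from -0.0566 to 0.0929 for the DMRTA1 gene. With 4 arrays a group and no detection calls, small differences of dim probe sets such as those of CDKN2A were not resolved.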
